A study of Mus musculus with 6 samples.

Results

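The genes described here are 41 genes of programmed cell death and of the p53 response, taken by exact gene symbol from the array's platform annotation. Of these, 39 had at least 1 probe set carrying that symbol alone, 101 probe sets in all out of the 45101 on the array. The expression of Bax and Trp53 was not analysed here. Gene expression was measured in mouse urogenital ridge epithelium at E10.5, cut by laser microdissection from the gonadal primordium, the thickened body-cavity lining that gives rise to the gonad. There were 3 pools of Emx2 KO fetuses, labelled -/-, and 3 pools of wild-type fetuses, labelled +/+, with 3 fetuses in each pool and 1 array per pool. Emx2 encodes a homeodomain transcription factor needed for the urogenital system, and the comparison asked which transcripts differ in this epithelium without it. The sources used here do not give how the Emx2 allele was made, the strain, the sex of the fetuses or whether fetuses of different pools came from one litter. The p-values take each pool as 1 replicate, with the spread between pools moderated by that of other probe sets of like intensity.

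In the mitochondrial pathway of apoptosis, BH3-only proteins sense stress and either neutralise the survival proteins of the BCL2 family or activate the pore-forming effectors. The pores release cytochrome c, which assembles with Apaf1 and caspase 9 into the apoptosome, and executioner caspases then dismantle the cell. Death receptors reach the same executioners through Fadd and caspase 8. The transcription factor p53 is held low by Mdm2 and Mdm4 and, when stabilised, raises the transcription of genes for cell cycle arrest, antioxidant defence and death. Emx2 mutant mice are known to lack kidneys and gonads at birth.

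Of the 35 members that could be tested, 4 passed the test (11.4%, against 5.41% of all genes tested) and 31 did not. Casp8, the initiator caspase of death receptors, and Trp53inp1, a p53-induced nuclear protein, were higher in the KO pools at their brightest probe sets. A dimmer Trp53inp1 probe set lay the other way and was not called. Casp6, an executioner caspase, and Birc2, an inhibitor of apoptosis protein, were lower. With 1 pool left out, Casp8 passed in 4 of 6 fits, Casp6 in 2, and Birc2 and Trp53inp1 in 1 each. Values below are scaled intensities, the deposited linear signal of a probe set after each array was brought to a common level, and fold changes are log2, KO minus wild-type. A probe set was called at an adjusted p under 0.05 in limma's test over all 27022 probe sets that passed a filter on dim signals.

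Of the members' 101 probe sets, 73 passed that filter, covering 35 genes, and the other 28 did not. Fas, the death receptor itself, the inflammatory caspases Casp1 and Casp12 and the BH3-only gene Bik had no probe set that passed and have no test here. The only Fas probe set read between 1.74 and 8.21 in KO pools and between 1.71 and 10.6 in wild-type pools, and that of Casp1 between 6.10 and 15.3 in KO and between 8.54 and 11.7 in wild-type pools. The 4 called probe sets were 5.48% of the 73, against 4.68% of all tested probe sets. By direction 2 were higher and 2 lower, against 2.75% and 1.93% of all tested probe sets. Read by the brightest probe set of each gene, 4 of 35 members were called (11.4%), against 5.41% of all 12315 genes tested (2.93% higher and 2.48% lower). The median log2 fold change over the 35 members was 0.03, against -0.01 over all genes tested, with 20 members above 0 and 15 below. The fold changes ran between -0.64 and 0.84, so no member probe set moved by as much as 1 on the log2 scale, and 65 of the 73 moved by less than 0.5. The median size of the change was 0.20 over the members' probe sets and 0.18 over all tested ones. By probe set the members' called share lay near that of the array as a whole, and by gene it rested on 4 genes. The members were chosen with earlier results of these data known, so these shares only describe them. None of the 4 calls held on the values as deposited without rescaling, without the filter on dim probe sets or without an intensity trend in the variance.

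**Figure D1:**
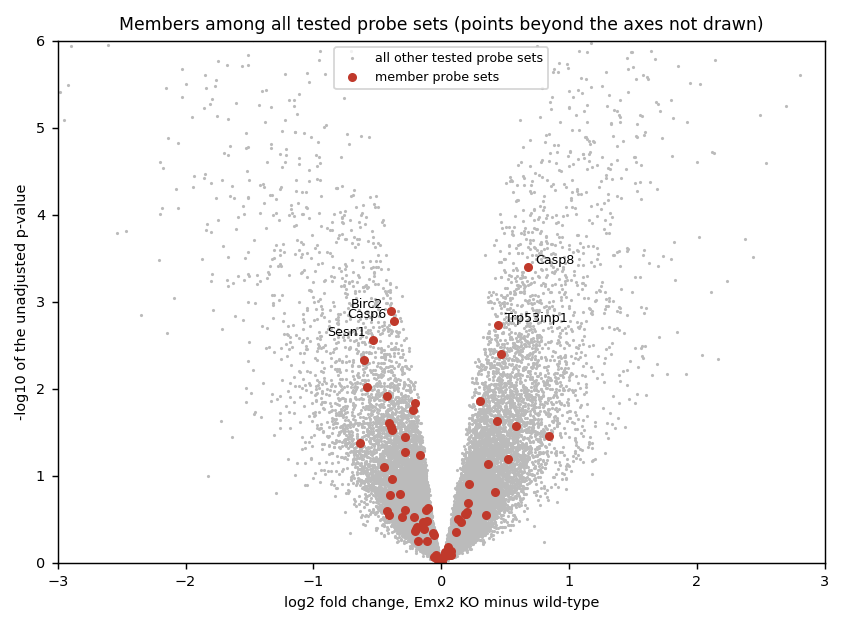
Each point is a tested probe set, with its log2 fold change (Emx2 KO minus wild-type) on the horizontal axis and the negative log10 of its unadjusted p-value on the vertical axis. The 73 member probe sets, in red, lie between -0.64 and 0.84, inside the cloud of other probe sets, with Casp8 highest among them.

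The pools differed in more than these genes. The only Emx2 probe set read 1678, 1480 and 1746 in KO pools and 1302, 2120 and 1727 in wild-type pools (adjusted p = 0.916), and as the sources used here do not say where it lies relative to the deleted part, it does not check the labels. Emx2os, annotated as a transcript opposite Emx2, read 44.9, 28.6 and 42.9 in KO pools and 167, 230 and 174 in wild-type pools (log2 fold change -2.30, SE 0.24, limma adjusted p = 0.00015), so this probe set separated the genotypes. Xist, the RNA of the inactive X chromosome, read 9320.5, 9326 and 9888 in KO pools and 20.7, 13.3 and 69.9 in wild-type pools, so the sex of the fetuses and the genotype cannot be told apart. The Y-linked Eif2s3y read 156, 226 and 99.8 in KO pools and 813, 709 and 806 in wild-type pools. Kdm5d and Uty, also Y-linked, were called lower as well. At their brightest probe sets all 3 stayed above the dim limit of 26.4 in KO pools, and the sex make-up of the pools was not tested. The summed signal of 12 tested mesenchyme markers ran from 21431 to 22472.5 in KO pools and from 14463 to 16267 in wild-type pools, 8 of the 12 being called higher. The sum of 10 tested endothelial markers ran from 2012 to 2292 in KO and from 1157 to 1581 in wild-type pools, 4 of them called higher, with the tested probe set of Cdh5 not called and Pecam1 under the dim limit. The sum of 7 tested macrophage markers ran from 550 to 747 in KO and from 339 to 523 in wild-type pools, where Csf1r alone was called, Aif1 lay at the intensity floor on all arrays and Ptprc did not pass (adjusted p = 0.964). Csf1r, the brightest of the 7, gave means of 331 in KO and 172 in wild-type pools. This list was split, with 5 genes above 0 and 2 below. Those below were Cd68 (-0.50, every KO pool under every wild-type pool) and Fcgr1 (-0.51), neither of them called. Other lists lay lower in KO pools. The sum of 3 tested nephric duct markers ran from 57.7 to 104.6 in KO and from 198 to 216 in wild-type pools, 2 of them, Pax8 and Lhx1, being called lower. The sum of 5 tested germ cell markers ran from 332 to 412 in KO and from 518 to 621 in wild-type pools, Dppa3 and Dnd1 being called lower. Of 8 tested markers of the gonadal epithelium itself, Nr5a1 (-1.22) and Krt8 (-0.59) were called lower and Krt19 (1.02) higher, and their sum overlapped, from 14004 to 16015 in KO and from 15734 to 17926 in wild-type pools. The sum of 6 tested erythroid markers, the largest of these sums, overlapped, from 35626 to 37072 in KO and from 35533 to 37210 in wild-type pools. None of them was called, though the globin gene Hba-x lay higher in every KO pool (0.24). Transcripts of red blood cells were thus abundant in all pools. The part of these markers in the results below was not tested, and in such pools fewer cells of a type and less RNA per cell cannot be told apart. Ratios of 3' to 5' control probe sets, a sign of RNA length, did not separate the genotypes for Gapdh, Actb or Tfrc (exact permutation tests, two-sided, p = 1, 0.8 and 0.6; adjusted p = 1 for each; the smallest p possible is 0.1). The ratios ran from 3.48 to 4.25 for Gapdh, 14.6 to 20.2 for Actb and 1.70 to 2.88 for Tfrc, so on every array the 3' end read higher. What this did to probe sets of 1 gene that disagree was not tested.

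Among the caspases and apoptosome genes, 1 of 7 tested members was higher, 1 was lower and 5 did not pass, with a median log2 fold change of -0.11. Of all genes tested, 2.93% were called higher and 2.48% lower. The single tested probe set of Casp8 read 655, 594 and 753 in KO pools, against 384, 482 and 387 in wild-type pools. The lowest KO pool lay above the highest wild-type pool. The means were 668 ± 80.3 in KO and 417 ± 55.7 in wild-type pools (SD, n = 3 each; log2 fold change 0.68, SE 0.14, 95% confidence interval 0.37 to 0.99, limma adjusted p = 0.0153). This was the member with the smallest p. It passed in 4 of the 6 fits with 1 pool left out and not without KO replicate 3 (adjusted p = 0.0851) or wild-type replicate 1 (0.0724), its log2 fold change staying between 0.59 and 0.79.

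Casp6, an executioner that cleaves lamins, read 2752, 2719 and 3046 in KO pools, against 3328, 4004 and 3692 in wild-type pools, again without overlap. Its means were 2839 ± 180 and 3675 ± 338 in KO and wild-type pools (SD, n = 3 each), a log2 fold change of -0.37 with an SE of 0.09 (adjusted p = 0.0401). A dimmer Casp6 probe set gave 255 ± 13.3 in KO and 325 ± 122 in wild-type pools (-0.28, SE 0.23, adjusted p = 0.608), its wild-type pools ranging from 203 to 447. The call of the bright probe set was lost without KO replicates 1, 2 and 3 in turn (adjusted p = 0.148, 0.149 and 0.0637) and without wild-type replicate 2 (0.131).

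The remaining initiators did not pass. Casp2, which acts with the PIDDosome, gave 2373 ± 105 in KO and 2346 ± 169 in wild-type pools (log2 fold change 0.02, 95% confidence interval -0.18 to 0.22). Casp9, the caspase of the apoptosome, gave 416 ± 39.8 in KO and 377 ± 72.8 in wild-type pools (0.16, interval -0.19 to 0.51). Apaf1, the scaffold that binds released cytochrome c, gave 600 ± 79.8 and 664 ± 101 in KO and wild-type pools (-0.14, interval -0.46 to 0.17). Cycs, cytochrome c itself, read 8129.5, 7664 and 8384 in KO pools and 9418, 8705 and 9711 in wild-type pools at its brightest probe set. KO pools lay below wild-type pools at all 3 bright Cycs probe sets, by -0.20, -0.22 and -0.17, and none of them was called (adjusted p = 0.15, 0.167 and 0.311). These intensities are of one transcript read 3 times and are not separate evidence. Diablo, which frees caspases from their inhibitors, had one probe set at -0.11 and a dimmer one at 0.52, neither of them called.

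Of the inhibitors of apoptosis proteins, Birc2, a ubiquitin ligase that also restrains non-canonical NF-kappa-B signalling, was lower in the KO pools. Its only probe set read 1392, 1323 and 1424 in KO pools, against 1907, 1701 and 1838 in wild-type pools. The groups were apart by more than the spread within either, at 1380 ± 51.7 in KO and 1815 ± 105 in wild-type pools (SD, n = 3 each), a log2 fold change of -0.39 with an SE of 0.10 (adjusted p = 0.033). Leaving out any pool other than wild-type replicate 2 ended this call, with adjusted p = 0.0997, 0.133 and 0.0836 without KO replicates 1, 2 and 3 and 0.133 and 0.0505 without wild-type replicates 1 and 3, while the log2 fold change stayed between -0.44 and -0.36. In the RefSeq annotation (GRCm38.p6) Birc2 lies next to its paralogue Birc3 with 0 protein-coding genes between them, and Birc3 gave -0.07 (95% confidence interval -0.53 to 0.38, adjusted p = 0.903). The difference between the neighbours was not tested.

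Xiap, the direct inhibitor of executioner caspases and the only X-linked member, did not pass at any of 5 tested probe sets. Its brightest read 1048, 938 and 1233 in KO pools and 975, 883 and 1067 in wild-type pools (log2 fold change 0.13, adjusted p = 0.665). The next brightest read 307, 334 and 293 in KO and 494, 355 and 380 in wild-type pools (-0.38, adjusted p = 0.221). These probe sets of one gene pointed opposite ways, and of the 2 described, KO and wild-type pools overlapped at the brighter one and not at the other.

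**Figure D2:**
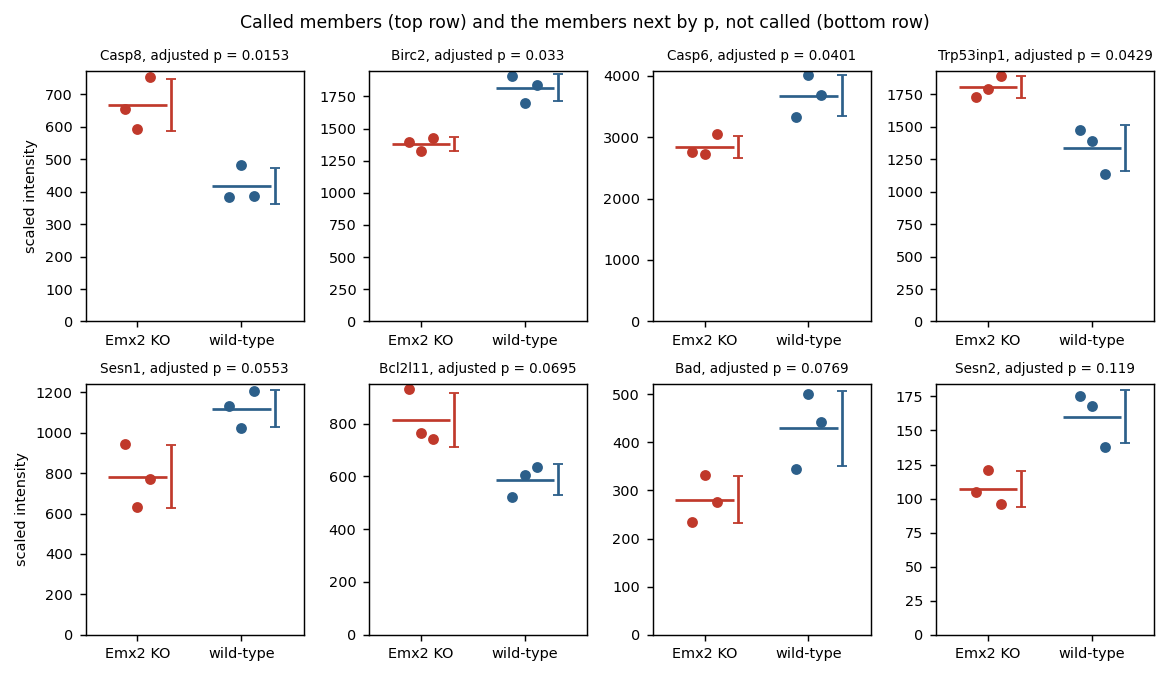
Scaled intensity (vertical axis, from 0) in each of the 3 KO pools (red) and 3 wild-type pools (blue), with the mean as a line and the SD as a bar, for the called members (top) and for the 4 other genes next by p, each at its probe set of smallest p (bottom). In all 8 panels the pools of one genotype lie apart from those of the other, and adjusted p-values are above 0.05 in the bottom row.

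In the death receptor arm upstream of Casp8 none of the 3 tested genes was called by limma, and the median log2 fold change was 0.18. An unadjusted p under 0.05 was met by 0 of their 7 probe sets, against 17.3% of all tested probe sets. Fadd, the adaptor that binds caspase 8, gave 275 ± 31.1 in KO and 242 ± 29.5 in wild-type pools (0.18, adjusted p = 0.628). Cflar, the catalytically inactive homologue that limits caspase 8 and lies beside Casp8 on chromosome 1 with 0 protein-coding genes between them, gave 253 ± 26.7 in KO and 222 ± 34.1 in wild-type pools (0.20, 95% confidence interval -0.17 to 0.56, adjusted p = 0.62). Its 3 other tested probe sets gave -0.04, 0.08 and -0.30. Tnfrsf10b, the mouse TRAIL receptor, gave 24.4 ± 7.86 in KO and 32.1 ± 7.30 in wild-type pools, the KO mean lying under the dim limit of 26.4. Whether Casp8 changed more than Cflar or Fadd was not tested.

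The BH3-only genes lay on both sides of 0, and of 7 tested none was called by limma, with 4 above 0 and 3 below. An unadjusted p under 0.05 was met by 6 of their 12 probe sets, against 17.3% of all tested probe sets. Bcl2l11 (Bim), which binds all the survival proteins, had 4 tested probe sets. The one of smallest p read 930, 764 and 743 in KO pools, against 521, 606 and 635 in wild-type pools. Its groups did not overlap, but the change did not pass (812 ± 102 in KO and 587 ± 59.2 in wild-type pools; log2 fold change 0.46, SE 0.13, adjusted p = 0.0695). The brightest read 2743, 2984 and 3606 in KO pools and 2660, 2369 and 2488 in wild-type pools (0.30, adjusted p = 0.146), and both dim probe sets gave -0.19 and 0.35 with overlapping pools.

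Bid, which is cleaved by caspase 8 and so joins the receptor arm to mitochondria, read 71.1, 77.2 and 93.1 in KO pools and 50.6, 48.6 and 61.4 in wild-type pools (log2 fold change 0.59, SE 0.23, adjusted p = 0.21). Pmaip1 (Noxa), a p53 target that opposes Mcl1, read 34.9, 50.9 and 28.04 in KO pools and 19.997, 27.3 and 15.8 in wild-type pools (0.84, SE 0.36, adjusted p = 0.242). Both lay higher in every KO pool than in any wild-type pool, and neither passed. The wild-type mean of Pmaip1 was under the dim limit, so its size is uncertain, and it gave 0.39 with the intensity floor at the 40th percentile.

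Bad, the BH3-only protein that growth factor signalling holds inactive by phosphorylation, lay on the other side. Its brightest probe set read 234, 333 and 276 in KO pools, against 345, 500 and 441 in wild-type pools, without overlap (281 ± 49.6 in KO and 429 ± 78.6 in wild-type pools; log2 fold change -0.61, SE 0.18, adjusted p = 0.0769). Hrk, known from neurons for its rise on loss of trophic support, read 28.2, 27.5 and 37.6 in KO pools and 45.2, 45.2 and 53.7 in wild-type pools (-0.64, adjusted p = 0.265). A further probe set of each gave -0.32 for Bad and -0.01 for Hrk, with overlapping pools. Bbc3 (Puma), a p53 target, gave 36.4 ± 11.7 in KO and 35.1 ± 1.73 in wild-type pools (log2 fold change 0.00, 95% confidence interval -0.67 to 0.68), and Bmf, a BH3-only protein held on the cytoskeleton, gave -0.14. The effector Bak1 gave 72.1 ± 4.02 in KO and 69.7 ± 8.98 in wild-type pools (0.05), and its relative Bok gave 248 ± 60.5 and 264 ± 29.4 in KO and wild-type pools (-0.11), neither of them called.

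None of the 4 survival genes of the BCL2 family was called by limma at any of 15 tested probe sets. Of these probe sets 4, all of Bcl2, had an unadjusted p under 0.05, against 17.3% of all tested probe sets. Bcl2, the founding member, lay lower in KO pools at 4 of its 5 probe sets, by -0.40, -0.29, -0.42 and -0.41, with adjusted p between 0.137 and 0.243. The brightest read 676, 791 and 495 in KO pools and 772, 898 and 869 in wild-type pools, overlapping by KO replicate 2. The probe set of smallest p read 360, 375 and 287 in KO pools and 455, 430 and 477 in wild-type pools, without overlap. The dimmest Bcl2 probe set gave 88.2 ± 16.2 in KO and 89.1 ± 21.3 in wild-type pools (0.00). Probe sets of 1 gene share its RNA, so their common direction is not replication.

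Mcl1, a short-lived survival protein, had 6 tested probe sets. The brightest read 5917, 5937 and 5567 in KO pools and 6041, 5579 and 6544 in wild-type pools (log2 fold change -0.06, 95% confidence interval -0.23 to 0.11), and all 6 lay between -0.12 and 0.11. Bcl2l1 (Bcl-x) gave 537 ± 21.5 in KO and 517 ± 16.04 in wild-type pools (0.05, interval -0.20 to 0.31). Bcl2l2 (Bcl-w) gave 0.36 at its brightest probe set and -0.21 and -0.41 at the others, with pools overlapping at each.

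**Figure D3:**
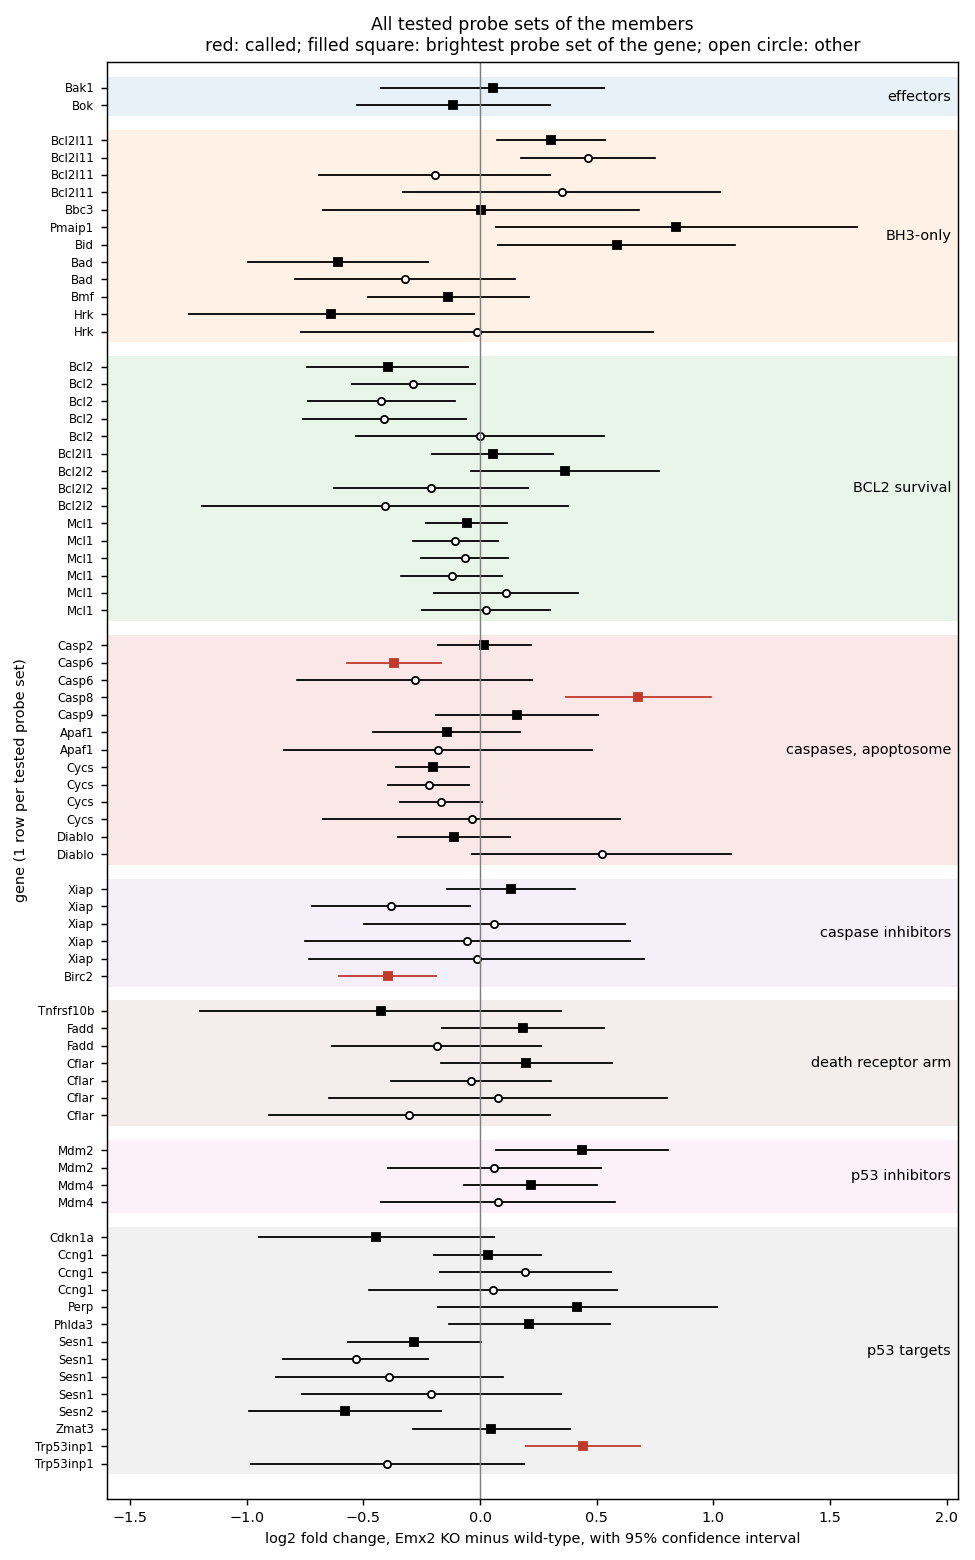
Log2 fold change (Emx2 KO minus wild-type, horizontal axis) with its 95% confidence interval for each of the 73 tested member probe sets, grouped by role, where red marks the 4 called ones, filled squares the brightest probe set of a gene and open circles its others. Bcl2 lies left of 0 at 4 of 5 probe sets, Mcl1 close to 0 at 6, and the BH3-only genes on both sides.

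Of the 8 dedicated p53 targets, all tested, 1 was higher, none was lower and 7 did not pass, with a median log2 fold change of 0.04. Taken with the p53 targets among the death genes and Mdm2, 13 were tested, 1 was called and the median was 0.03, with 8 above 0 and 5 below. Over all genes tested, 5.41% were called, 2.93% higher and 2.48% lower. Trp53inp1, which promotes p53 phosphorylation and also acts in autophagy, read 1731, 1790 and 1895 in KO pools, against 1479, 1391 and 1139 in wild-type pools. The KO pools all lay above the wild-type pools (1806 ± 83.0 in KO and 1336 ± 177 in wild-type pools, SD), a log2 fold change of 0.44 with an SE of 0.11 (adjusted p = 0.0429). The other tested Trp53inp1 probe set, far dimmer, read 33.8, 32.04 and 39.0 in KO pools and 45.8, 50.9 and 41.3 in wild-type pools (-0.40, SE 0.27, adjusted p = 0.508), so both probe sets separated the pools but in opposite directions. The call held without wild-type replicate 1 (adjusted p = 0.0468) and was lost without each other pool (adjusted p = 0.0922, 0.118 and 0.161 without KO replicates 1, 2 and 3, and 0.0629 and 0.0768 without wild-type replicates 2 and 3). It was lost as well with arrays scaled to a common median (0.0908).

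Mdm2, at once the main inhibitor of p53 and its target, read 507, 424 and 459 in KO pools, against 264, 367 and 410 in wild-type pools. The groups did not overlap, but wild-type replicate 3 lay close to KO replicate 2, and the change did not pass (463 ± 42.0 in KO and 347 ± 74.9 in wild-type pools; log2 fold change 0.44, SE 0.17, adjusted p = 0.196). Its other tested probe set gave 0.06 and Mdm4, the partner that blocks the activation domain of p53, gave 0.22 (adjusted p = 0.448). Cdkn1a (p21), the inhibitor of cyclin-dependent kinases that is the most widely used readout of p53, lay the other way. It read 64.2, 112 and 100 in KO pools and 124, 113 and 130 in wild-type pools. KO replicate 2 and wild-type replicate 2 were nearly level, and the change did not pass (-0.44, SE 0.23, 95% confidence interval -0.95 to 0.06, adjusted p = 0.362).

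The sestrins, p53 targets that restrain mTORC1 under stress, both lay lower in KO pools. Sesn1 at its probe set of smallest p read 943, 631 and 773 in KO pools, against 1131, 1022 and 1207 in wild-type pools (782 ± 156 in KO and 1120 ± 93.0 in wild-type pools; log2 fold change -0.53, SE 0.14, adjusted p = 0.0553). Sesn2 read 104, 121 and 95.7 in KO pools and 175, 168 and 138 in wild-type pools (-0.58, SE 0.19, adjusted p = 0.119). Neither passed, although the pools did not overlap in either. The 3 other Sesn1 probe sets gave -0.28, -0.39 and -0.21 with overlapping pools. Ccng1, a cyclin-like target, gave 936 ± 37.3 in KO and 914 ± 34.9 in wild-type pools (0.03, interval -0.20 to 0.26), and Zmat3, an RNA-binding target, gave 208 ± 12.2 and 201 ± 12.3 in KO and wild-type pools (0.05). Phlda3, a repressor of Akt, gave 0.21 and the desmosomal Perp gave 0.42, neither of them called.

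The promoter windows of Cdkn1a, Mdm2 and Sesn1 are shown because these p53 targets held the p53 response-element decamer, a motif that reads as itself on the opposite strand. Windows run from 250 bases before to 50 after an annotated start (RefSeq, GRCm38.p6), 5′ to 3′ on the gene's strand, with decamer matches in capitals.
Cdkn1a (chr17:29090729-29091028, plus strand): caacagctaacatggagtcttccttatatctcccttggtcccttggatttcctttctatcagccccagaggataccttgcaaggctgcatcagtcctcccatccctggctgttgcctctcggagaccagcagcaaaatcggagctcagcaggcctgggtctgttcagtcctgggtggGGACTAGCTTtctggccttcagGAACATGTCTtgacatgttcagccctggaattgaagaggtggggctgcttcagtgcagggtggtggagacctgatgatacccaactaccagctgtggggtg
Mdm2 (chr10:117710709-117711008, minus strand): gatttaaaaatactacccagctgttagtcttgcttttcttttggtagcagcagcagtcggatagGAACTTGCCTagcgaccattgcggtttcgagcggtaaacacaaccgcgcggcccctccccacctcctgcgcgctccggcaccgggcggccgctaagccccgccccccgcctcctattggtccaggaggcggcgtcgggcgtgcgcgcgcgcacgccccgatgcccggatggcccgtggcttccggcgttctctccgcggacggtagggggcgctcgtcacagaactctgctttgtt
Sesn1 (chr10:41887189-41887488, plus strand): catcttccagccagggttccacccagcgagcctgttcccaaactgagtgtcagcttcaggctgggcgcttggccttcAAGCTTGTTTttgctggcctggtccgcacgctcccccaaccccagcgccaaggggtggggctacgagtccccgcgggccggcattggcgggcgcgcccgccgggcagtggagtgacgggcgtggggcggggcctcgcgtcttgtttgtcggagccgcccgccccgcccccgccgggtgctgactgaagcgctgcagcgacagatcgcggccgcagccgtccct
The decamer was found in 8.36% of 32851 windows of all genes and in 8 of 49 windows of members (16.3%). These windows belong to the 35 members found in the table of promoters, a different set from the 35 tested. The Cdkn1a window held 2, starting 73 and 51 bases before the start and so spaced as a pair with at most 13 bases between them, which 24 of all windows did (0.0731%). Only exact matches were marked. The 10 bases directly after the second of these decamers miss the pattern at their first base alone and so stayed unmarked. The Mdm2 and Sesn1 windows held 1 each, 186 and 173 bases before the start. A second window of Cdkn1a and one of Sesn1 held none. The window of the p53 target Ccng1, not shown, held 1, starting 185 bases before the start. Windows of Bax, Trp53 and Bmf, not shown, also held 1 each. The windows of the p53 targets Phlda3, Sesn2 and Bbc3 held none, so the decamer did not mark the p53 targets as a group. At their brightest probe sets Cdkn1a gave -0.44, Mdm2 0.44, Sesn1 -0.28 and Ccng1 0.03 on the log2 scale, and none of these was called. Among the called genes, the windows of Casp8 and Casp6 held none, 1 of the 2 Birc2 windows held 1, and no window of Trp53inp1 was analysed here.

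**Figure D4:**
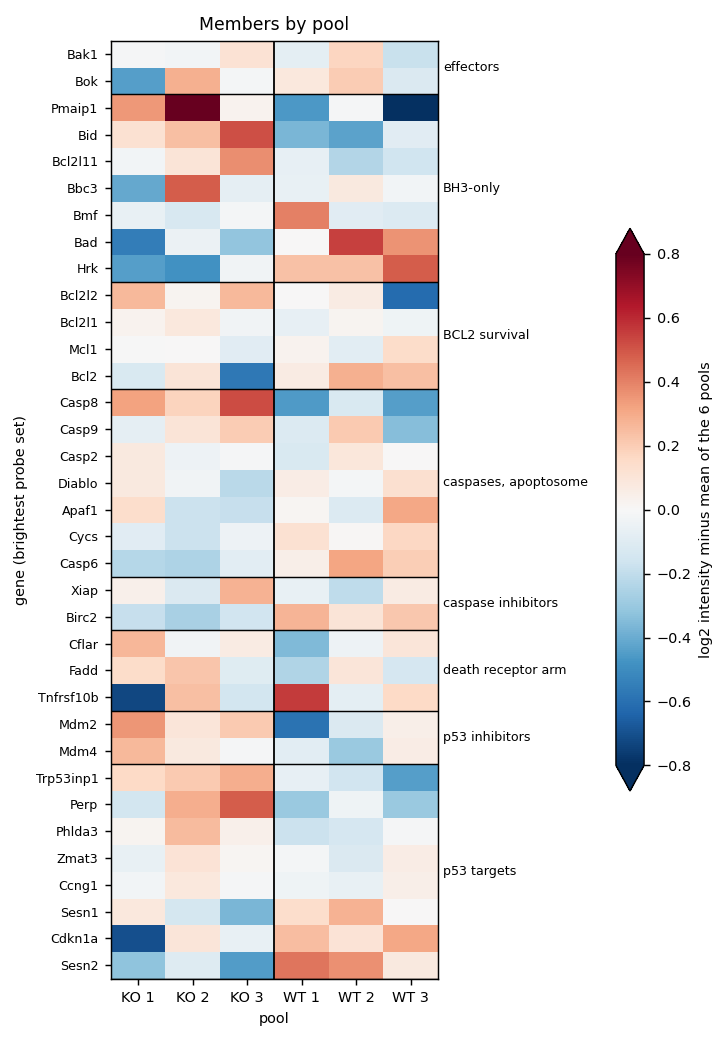
Log2 intensity of the brightest probe set of each of the 35 tested members (rows, by role) in each pool (columns, KO left, wild-type right), relative to the mean of the 6 pools, with colours ending at 0.8 on either side. Roles with 3 or more genes hold rows brighter and rows dimmer in KO pools, and Casp8, Casp6, Birc2, Trp53inp1, Bid and Sesn2 show the groups apart.

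The 3 pools of each genotype did not overlap in 23 of the 73 member probe sets (31.5%), against 22.0% of all tested probe sets. Several of the 23 read the same gene, Bcl2 and Cycs giving 3 each. With 1 probe set per gene, the brightest, KO pools lay above in 7 of 35 members, against 11.2% of all genes, and below in 7, against 12.1% of all genes. The 7 above were Bcl2l11, Pmaip1, Bid, Casp8, Mdm2, Phlda3 and Trp53inp1, and the 7 below were Bad, Hrk, Casp6, Cycs, Birc2, Cdkn1a and Sesn2. An unadjusted p under 0.05 was met by 20 of the 73 probe sets (27.4%), against 17.3% of all tested probe sets. As the members were chosen with earlier results known, these shares too are descriptive. The members with groups apart fell on both sides within the BH3-only genes, the caspases and the p53 targets.

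Other genes of these pathways were tested in the same fit. Their lists, like the members, were chosen with earlier results of these data known, so they are not an independent check. For comparison with the counts below, 5.41% of all genes tested were called (2.93% higher and 2.48% lower). An unadjusted p under 0.05 was met by 17.3% of all tested probe sets. Of 25 further apoptosis genes tested, 1 was higher and 1 lower, with a median of -0.10. Bnip3, a mitochondrial BH3-like protein induced by hypoxia, read 1828, 1567 and 1715 in KO pools and 1037, 1327 and 1260 in wild-type pools (log2 fold change 0.50, SE 0.12, adjusted p = 0.0261). Bag1, a co-chaperone that binds Bcl2, read 1462, 1397 and 1315 in KO pools and 1929, 2018 and 1696 in wild-type pools (-0.43, SE 0.10, adjusted p = 0.0286). Of 24 further p53 targets tested none was called by limma (median -0.07, 3 of 37 probe sets at an unadjusted p under 0.05), the smallest p belonging to Plk2, a polo-like kinase (0.54, adjusted p = 0.0631), and Rprm, a cell cycle arrest gene (-0.85, adjusted p = 0.186). Of 14 genes that activate or restrain p53 none was called by limma at the brightest probe set (median -0.01, 2 of 37 probe sets at an unadjusted p under 0.05), Ppm1d, a phosphatase that ends p53 signalling, giving -0.25 and the DNA repair kinase Prkdc 0.27. Single dimmer probe sets of Siva1 (-0.51, adjusted p = 0.0281) and Usp7 (-0.99, adjusted p = 0.0283) were called while the brightest of each was not, and both were picked out after their values were seen.

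**Figure D5:**
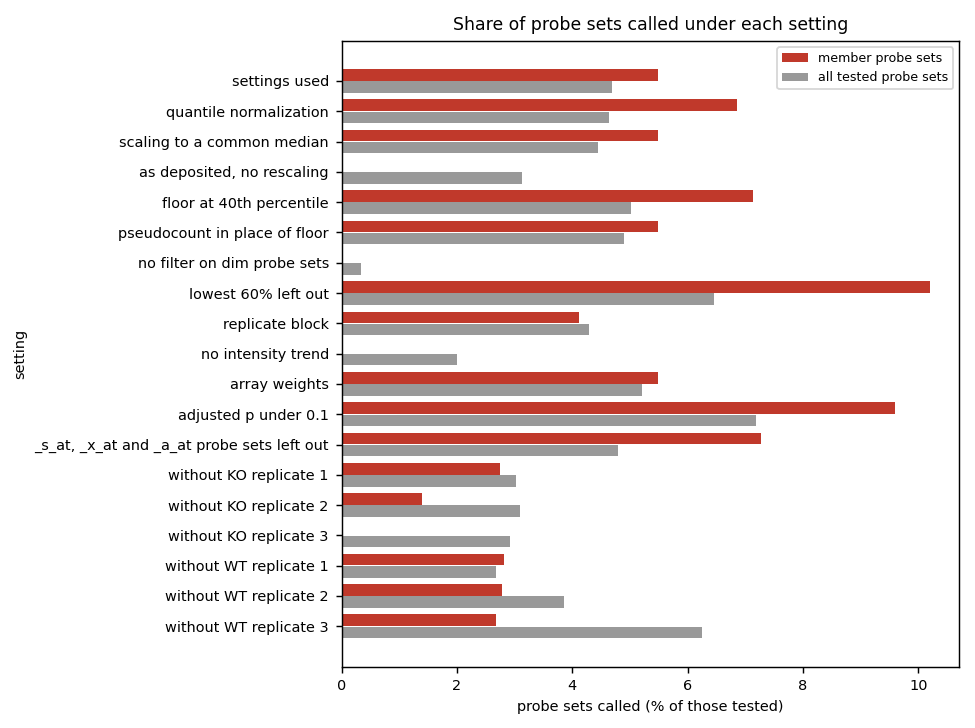
Share of probe sets called (horizontal axis, % of those tested) among the members (red) and among all tested probe sets (grey) under the settings used and each alternative. Member shares run from 0 to 10.2%, with 0 called in 4 settings.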

How the data were processed

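The authors deposited 1 linear intensity per probe set and array for 6 single-channel arrays, from 15 ng of total RNA per pool amplified in 2 rounds, per the labels' protocols. Per the submitters' processing notes GCOS 1.2 was used. Its algorithm and scaling target are not stated in the sources at hand. The trimmed means (2%) of the deposited intensities differed by up to 1.47 times, so each array was scaled to a common 309. Values below the 20th percentile (7.99) were set to it and log2 taken. The 64 control probe sets and the dimmest 40% (mean under 26.4) were left out. limma 3.58.1 in R 4.3.3 (lmFit, eBayes with intensity trend, 8.74 prior degrees of freedom) compared KO with wild-type pools, two-sided, with Benjamini-Hochberg adjustment over 27022 probe sets. Confidence intervals (95%) are from the same fit. The number of arrays limits the precision. Genes come from the platform annotation, and all 39 members matched RefSeq by gene identifier.

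Members and lists were chosen with earlier results of these data known. Values are given for members with a called probe set or an unadjusted p under 0.05 and for Mdm2, Cdkn1a, Bcl2 and Xiap. Of each further list of pathway genes up to 4 called genes by size were named, or the 2 of smallest p. Cell type markers are given as sums, with a few defining or called markers named after their values were seen. The labels number the replicates without stating pairs, so the main fit did not pair the pools.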

Additional observations from a re-analysis of the deposited data

How the results depend on the processing

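Over 18 alternatives, 0 of the 402 values of 23 named member probe sets changed direction, while 32 lost a call and 10 gained one. These 23 had an unadjusted p under 0.05 in the main fit or were the brightest probe set of a named gene. All alternatives reused the same pools, so a kept direction is not separate evidence. Most of the 23 had pools that did not overlap, so leaving out 1 pool could hardly reverse them. Dimmer probe sets of the same genes, such as those of Trp53inp1 (-0.40) and Hrk (-0.01), were not among them. The main counts were 2 member probe sets higher and 2 lower in KO. Both counts were 0 on the values as deposited, without a filter on dim probe sets and without an intensity trend, the called share of all tested probe sets then being 3.13%, 0.335% and 2.00%, and 5, 18 and 17 member probe sets having an unadjusted p under 0.05 in limma. Over the alternatives other than left-out pools, the adjusted p ran from 0.0113 to 0.157 for Casp8, 0.0316 to 0.273 for Trp53inp1, 0.0307 to 0.826 for Casp6 and 0.0241 to 0.832 for Birc2. The higher count was 1 and the lower 3 with scaling to a common median. The lower count was 3, Sesn1 being added, with quantile normalization, a floor at the 40th percentile and the lowest 60% left out, and the higher count stayed at 2. At an adjusted p under 0.1, 3 were higher and 4 lower. Without each pool in turn the higher count ran from 0 to 1 and the lower from 0 to 1, and no member was called without KO replicate 3 (13 at an unadjusted p under 0.05). With the replicate number as a block (replicate block) 1 was higher and 2 lower, namely Casp8, Bad and Sesn1, the called probe sets of the whole array being 1160 against 1264. Same-numbered pools correlated in their deviations at -0.07, 0.04 and -0.05, which gave no sign of pairs. With deviations from the mean of 3 pools these values depend on each other, so they cannot exclude pairing. Without rescaling the median of all probe sets was 0.10. A pseudocount, array weights, and leaving out all probe sets with names ending in _s_at, _x_at or _a_at gave 2 and 2. With 3 arrays per group and no detection calls, members near the dim limit (Pmaip1, Hrk, Tnfrsf10b, Bbc3) are limited by signal, and Fas, Casp1, Casp12 and Bik could not be compared.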
